A study of Rattus norvegicus with 30 samples.

Results

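The mitochondrial solute carriers are the Slc25a family of inner membrane transporters, and a few of its members sit in the peroxisomal or the outer mitochondrial membrane. The genes examined here are those whose symbol on the array starts with Slc25a, with Slc25a15 and Slc25a20 left out by the rule, and with only probesets that name 1 gene. That gave 38 genes on 51 probesets, of 14217 genes measured in all, and 34 of the 38 passed a filter on low signal. The rule uses gene symbols and no measured value.

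Each carrier is a small protein made of repeated pairs of membrane helices, and most move solutes between the matrix and the cytosol, many of them by exchange. Adenine nucleotide and phosphate carriers supply the ATP synthase with its substrates and export ATP. The citrate, malate, oxoglutarate and aspartate-glutamate carriers join the citric acid cycle to lipid synthesis, gluconeogenesis and the urea cycle in liver, and other carriers bring in cofactors, nucleotides and iron. All are encoded in the nucleus and reach their membrane after synthesis in the cytosol.

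The cells were cryopreserved primary hepatocytes of male Sprague Dawley rats, cultured on collagen under a Matrigel overlay and dosed on day 3. They received water as the vehicle, 0.5 mM sodium valproate or 10 mM sodium valproate, and total RNA was collected after 24 h or 48 h, so that 6 groups of 5 wells gave 30 expression arrays. Sodium valproate is an antiepileptic drug, a branched fatty acid that enters fatty acid metabolism in liver and also inhibits histone deacetylases. All groups shared the same cells, medium and vehicle. The labels do not state the age of the rats, how many donors were used or which wells shared a plate, and p-values here reflect only how far the wells of a group scattered, which may be technical.

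Values are array signals on the linear scale of the deposited files, where only the same probeset is compared between groups. Differences are between group means of log2(signal + 16), each with the standard error (SE) from one limma fit across all probesets and with p-values adjusted over all of them. A gene was called at an adjusted p under 0.05. All 9 hepatocyte markers measured passed the filter, 8 fell at 10 mM at 24 h, 4 fell and 1 rose at 48 h, and their summed signal had a median of 372066 at 10 mM and 474213 in water at 24 h. Markers of Kupffer cells and macrophages were lower at 10 mM: their summed signal ranged over 6306 to 7681 at 10 mM and 20178 to 24062 in water at 24 h, and over 5206 to 10222 at 10 mM and 17442 to 19731 in water at 48 h. Of the 9 Kupffer markers measured, 6 passed the filter, and 4 of these fell at 10 mM at each time, while Adgre1, Cd163 and Ptprc were below it. Of the tested endothelial markers 1 of 5 fell at 24 h and none of 5 at 48 h, and of the stellate markers 2 of 7 fell at each time. Of the 4 tested bile duct markers 2 fell and 1 rose at each time, and the summed signal of the 7 measured ranged over 6845 to 7842 at 10 mM and 8185 to 10399 in water at 24 h, and over 5729 to 7409 at 10 mM and 11927 to 13939 in water at 48 h, with Krt19, Krt7 and Spp1 below the filter. Over all tested genes 31.1% were higher and 25% lower at 10 mM at 24 h, and 27.6% and 22.3% at 48 h. The part of these cell types in the carrier results was not tested, and in such bulk RNA fewer cells of a type and less RNA per cell cannot be told apart. In 3 arrays, replicate 3 of the 0.5 mM and replicate 4 of the 0.5 mM group at 48 h and replicate 3 of the water group at 24 h, the 3' to 5' actin signal ratio was the highest, at 2.77, 2.23 and 2.76 on the log2 scale, against at most 1.74 in the other 27 arrays. Calls of carriers against water, and of the interaction with time, that changed without these arrays are given both ways.

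At 10 mM the carriers changed in both directions. At 24 h, 14 of the 34 tested carriers were higher and 12 lower than in water, where 31.1% of all 11604 tested genes were higher and 25% lower (56.1% either way). At 48 h, 13 were higher and 8 lower, where 27.6% of all tested genes were higher and 22.3% lower (49.8% either way). The median difference of the carriers was 0.21 at 24 h, beside 0.07 for all tested genes, and 0.02 at 48 h, beside 0.03 for all tested genes. A change of at least 1 on the log2 scale was called in 10 carriers at 24 h and in 5 at 48 h, where 15.2% and 10.7% of all tested genes passed the same rule. The 5 cultures at 10 mM lay wholly above or wholly below the 5 water cultures in 23 carriers at 24 h (45.6% of all tested genes) and in 18 at 48 h (42.3%). Among the 26 carriers called at 24 h, 18 were called in the same direction at 48 h, none in the opposite one, and 5 of the 34 were called at neither time. The 18 made up 69.2% of the carriers called at 24 h and 85.7% of those called at 48 h, beside 71% and 79.9% over all tested genes. The largest increases were in Slc25a36, a pyrimidine nucleotide carrier, and Slc25a25, an ATP-Mg/phosphate carrier. The largest decreases were in Slc25a1, the citrate carrier, and, at 24 h, Slc25a13, the aspartate-glutamate carrier that predominates in liver.

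**Figure D1:**
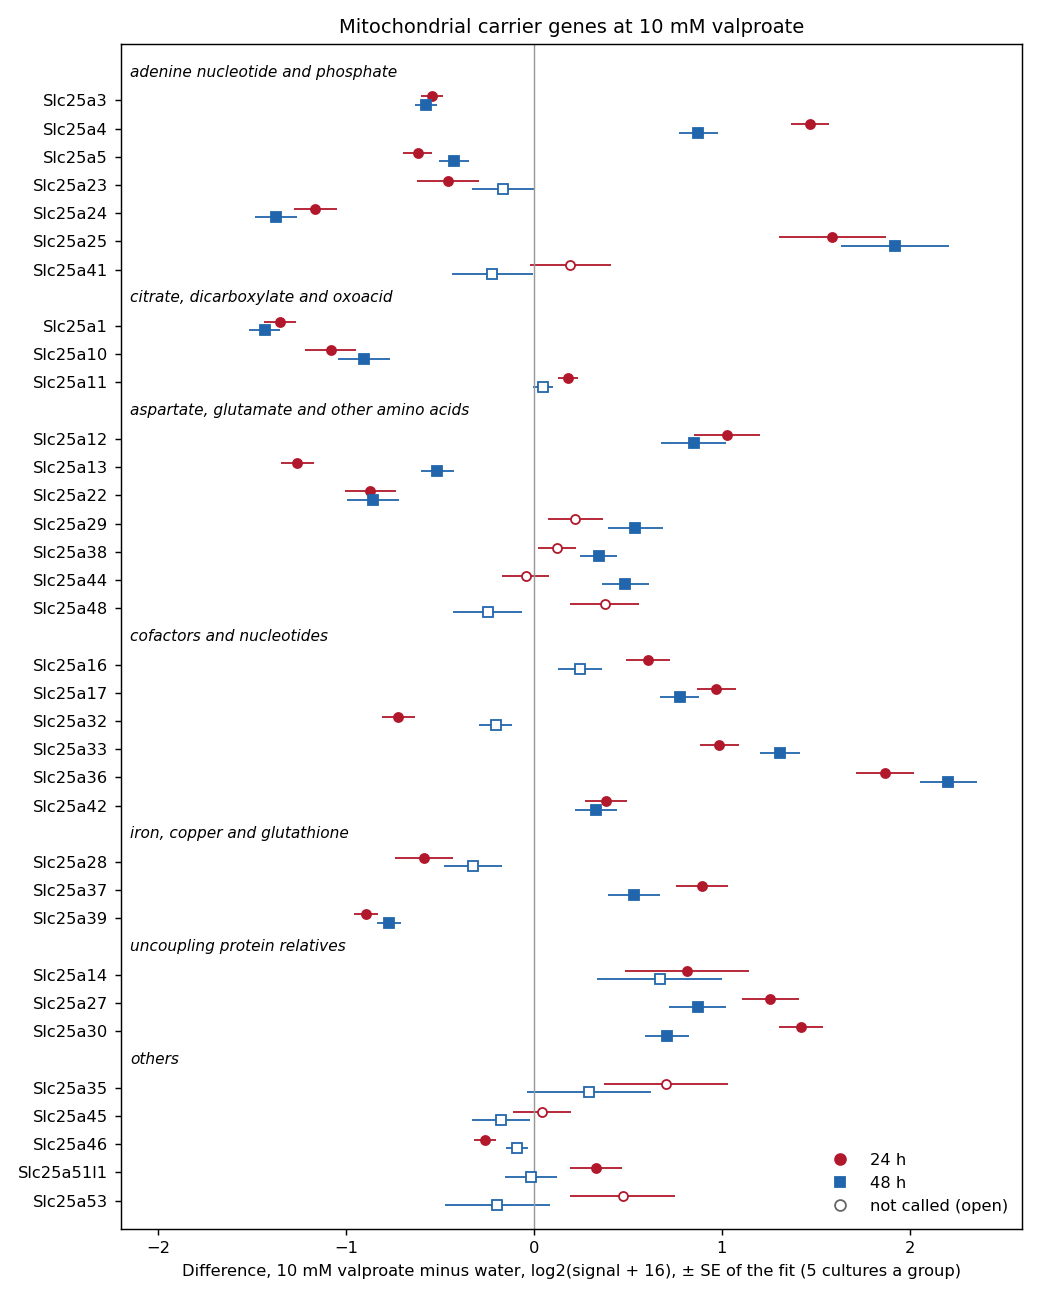
Difference between 10 mM valproate and water for each of the 34 tested carriers, on the log2(signal + 16) scale (x axis), at 24 h (red circles) and 48 h (blue squares), with bars of 1 SE of the fit over 5 cultures a group; open symbols were not called. Carriers stand in groups by solute, and every group but the relatives of the uncoupling proteins holds points on both sides of 0: Slc25a36 lies at 1.87 and 2.21 at the right, Slc25a1 at -1.35 and -1.43 at the left.

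The exchange of ATP for ADP is carried out by adenine nucleotide translocases, of which Slc25a4 is the form of heart and muscle and Slc25a5 the form of proliferating and many other tissues. Slc25a4 gave signals of 14981, 17095, 17575, 18023 and 16723 in the 10 mM cultures at 24 h, against 6245, 6425, 4256, 6753 and 7187 in the water cultures. The 48 h signals were 28603, 27088, 26734, 27837 and 26844 at 10 mM, against 15635, 14973, 13252, 15811 and 15157 in water. Every 10 mM culture was above every water culture of the same time, and the differences were 1.47 ± 0.10 (adjusted p = 1.85e-13) and 0.88 ± 0.10 (adjusted p = 2.13e-08), a 2.77-fold and 1.83-fold rise. Slc25a5 gave 24777, 27487, 25503, 26707 and 25626 at 10 mM at 24 h, against 36098, 43756, 33859, 40871 and 46726 in water. After 48 h the signals were 33069, 36831, 30104, 29363 and 28907 at 10 mM, against 44167, 43521, 38169, 42443 and 44056 in water. Slc25a5 thus moved the other way, with no overlap between groups at either time, and fell by 0.62 (SE 0.08, adjusted p = 6.17e-08) and 0.43 (SE 0.08, adjusted p = 3.79e-05). Slc25a3, the phosphate carrier, gave 21282, 22450.4, 20786, 21908 and 21309 at 10 mM at 24 h, against 28360.4, 33683, 28874, 33101 and 33404 in water. Its signals at 48 h were 24306, 26970.2, 22975, 23118 and 22246 at 10 mM, against 35638, 37599.9, 34711, 37049 and 33291 in water. The groups did not overlap, and Slc25a3 fell by 0.54 (SE 0.06, adjusted p = 2.11e-09) and 0.58 (SE 0.06, adjusted p = 9.46e-10). Slc25a31, the translocase of the testis, did not pass the filter on low signal. Signal of probesets that match closely related genes can be shared between them, which was not tested here. Over the 7 tested carriers of adenine nucleotides and phosphate, including those that follow, 2 were higher and 4 lower at 24 h, and 2 were higher and 3 lower at 48 h. The shares of all tested genes were 31.1% higher and 25% lower at 24 h, and 27.6% and 22.3% at 48 h.

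The ATP-Mg/phosphate carriers, which shift the total adenine nucleotide pool of the matrix under the control of calcium, split in the same way. Slc25a25 gave 1989, 2459, 2038, 1786 and 1809.8 at 10 mM at 24 h, against 594, 778, 720.1, 621 and 584 in water. At 48 h it gave 2494, 1835, 3339, 3248 and 2510.0 at 10 mM, against 573, 707, 751, 590.4 and 819 in water. All 10 mM cultures lay above all water cultures, and the differences were 1.59 ± 0.29 (adjusted p = 2.27e-05) and 1.92 ± 0.29 (adjusted p = 1.61e-06), or 3.01-fold and 3.79-fold. Slc25a24 gave 1398, 1319, 1281, 1513 and 1324 at 10 mM at 24 h, against 3590.0, 3148, 3638, 2601 and 2584 in water. The 48 h signals were 1774, 2092, 1619.8, 1645 and 1742 at 10 mM, against 4322, 4696, 4966, 5002 and 4119.6 in water. Its 10 mM cultures lay wholly below the water cultures, with differences of -1.16 ± 0.11 (adjusted p = 2.57e-10) and -1.37 ± 0.11 (adjusted p = 1.12e-11). Slc25a23, another member of this group, gave 615, 586, 684, 640.1 and 659 at 10 mM at 24 h, against 841, 822, 1338, 749 and 764 in water. It fell by 0.46 (adjusted p = 0.0205) at 24 h, but the call rested on replicate 3 of the water group, without which the difference was -0.31 (adjusted p = 0.106; 0.0658 without all 3 arrays of high actin ratio). At 48 h Slc25a23 gave 684, 829.5, 661, 667 and 761 at 10 mM and 962, 791, 811, 824 and 674 in water, overlapping groups with a difference of -0.17 ± 0.16 (adjusted p = 0.457). Slc25a41, the short member that lacks the calcium-binding part, was called at neither time (differences 0.19 ± 0.21 and -0.22 ± 0.21).

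The 250 bases before the annotated start of the RefSeq transcript (GRCr8) are shown for these 4 genes because they form 2 of the related pairs whose members moved apart, Slc25a4 higher with Slc25a5 lower and Slc25a25 higher with Slc25a24 lower. They are written 5′ to 3′ on the strand of the gene, and capitals mark the letters of a motif that was searched for on both strands.
Slc25a4 (chr16:52805271-52805520, + strand): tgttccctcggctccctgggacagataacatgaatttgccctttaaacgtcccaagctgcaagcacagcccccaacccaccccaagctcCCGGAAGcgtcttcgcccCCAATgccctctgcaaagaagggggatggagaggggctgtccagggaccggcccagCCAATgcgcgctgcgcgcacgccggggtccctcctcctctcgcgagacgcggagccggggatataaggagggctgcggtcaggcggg
Slc25a5 (chrX:120897366-120897615, + strand): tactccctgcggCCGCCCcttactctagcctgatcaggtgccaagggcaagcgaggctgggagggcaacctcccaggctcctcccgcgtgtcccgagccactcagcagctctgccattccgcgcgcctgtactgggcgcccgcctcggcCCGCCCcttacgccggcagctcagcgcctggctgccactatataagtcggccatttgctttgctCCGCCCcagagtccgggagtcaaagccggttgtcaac
Slc25a25 (chr3:36116582-36116831, - strand): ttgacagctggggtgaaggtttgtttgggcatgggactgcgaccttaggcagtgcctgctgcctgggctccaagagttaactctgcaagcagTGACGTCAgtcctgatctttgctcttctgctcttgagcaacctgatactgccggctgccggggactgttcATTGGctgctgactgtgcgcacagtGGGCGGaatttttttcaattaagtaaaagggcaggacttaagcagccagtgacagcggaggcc
Slc25a24 (chr2:199449175-199449424, + strand): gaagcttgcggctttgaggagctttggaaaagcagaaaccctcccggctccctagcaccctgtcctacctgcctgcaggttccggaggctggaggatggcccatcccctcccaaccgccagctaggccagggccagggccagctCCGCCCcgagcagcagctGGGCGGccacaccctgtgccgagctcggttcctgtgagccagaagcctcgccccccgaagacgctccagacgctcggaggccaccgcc

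The motifs searched were the GC box GGGCGG, the CCAAT box CCAAT, the E-box CACGTG, an ETS site CCGGAAG, the palindromic NRF1 site, an ERR site TCAAGGTCA and the cyclic AMP response element TGACGTCA. None of these overlapped another in the stretches shown. The Slc25a4 stretch held 2 CCAAT boxes and 1 ETS site, and that of Slc25a25 held 1 GC box, 1 CCAAT box and 1 cyclic AMP response element. The Slc25a5 stretch held 3 GC boxes and the Slc25a24 stretch 2, and neither held another motif of the list. A promoter was found for 32 of the 38 carriers, and none was found for Slc25a30, Slc25a32, Slc25a36, Slc25a37, Slc25a46 and Slc25a51l1. Of the 32, only 28 had passed the filter, so the set is not wholly alike to the tested genes set beside it. Over the 32, the GC box was found in 20 (62.5%), beside 57.6% of the 9666 promoters of tested genes and 32.4% of all 27457 promoters. The CCAAT box was found in 18 (56.25%), beside 35.7% of tested genes and 34.3% of all. The ETS site was found in 4 (12.5%, beside 14.8% of tested genes and 7.74% of all), and the E-box and the cyclic AMP response element in 2 each (6.25%, beside 8.33% and 2.85% of tested genes and 5.80% and 1.70% of all). The letters of the NRF1 and ERR sites were in no carrier window, and in 1.70% and 0.17% of those of tested genes. Among the 32, 10 were called higher and 10 lower at 10 mM at 24 h. The GC box was in 8 of each 10, and the CCAAT box in 7 of the higher and 5 of the lower. The ETS site was in 2 and 1, the E-box in 1 and 0, and the cyclic AMP response element in 2 and 0. A difference between the directions was not tested.

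Of the 3 tested carriers of citrate, dicarboxylates and oxoacids, 2 fell at 10 mM at both times, while Slc25a11 rose slightly at 24 h. Beside these, 25% of all tested genes were lower and 31.1% higher at 24 h, and 22.3% and 27.6% at 48 h. Slc25a1, which exports citrate for the synthesis of fatty acids and sterols, gave 4285, 4254, 4636, 4529 and 4509.9 at 10 mM at 24 h, against 10385, 10582, 13553, 11596 and 10975 in water. After 48 h the signals were 3969, 5109, 3671, 3637 and 4427 at 10 mM, against 11752, 12193, 9949, 10823 and 11346 in water. No culture at 10 mM reached the lowest water culture, and the differences were -1.35 ± 0.08 (adjusted p = 1.12e-14) and -1.43 ± 0.08 (adjusted p = 7.71e-15), to 0.39 and 0.37 of the water level. Slc25a10, the dicarboxylate carrier that exchanges malate and succinate for phosphate, gave 2106, 2148, 2168, 2308 and 2236 at 10 mM at 24 h, against 3841, 4815, 6157, 4558 and 4248 in water. Its signals at 48 h were 1924, 1997, 1806, 2001 and 1947 at 10 mM, against 3325, 3648, 3821, 3367 and 4059 in water. The groups did not overlap, and Slc25a10 fell by 1.08 (adjusted p = 6.12e-08) and 0.90 (adjusted p = 2.12e-06). A second, dimmer probeset for Slc25a10 was not called, with differences of -0.02 at 24 h and -0.35 at 48 h. Slc25a11, the oxoglutarate-malate carrier of the malate-aspartate shuttle, gave 8396, 8697, 8890.1, 9126 and 8915 at 10 mM at 24 h, against 7074, 8232, 7517, 7872 and 8144 in water. It rose by 0.18 (SE 0.05, adjusted p = 0.0044; 0.11 and 0.141 where each array was centred on ribosomal protein genes). At 48 h it gave 8827, 8817, 9088, 9055 and 8145 at 10 mM and 8186, 8448, 7982, 8624 and 9276 in water, with overlapping groups and a difference of 0.05 (95% interval -0.06 to 0.16). Slc25a21, the oxodicarboxylate carrier, was below the filter, with a mean signal of 28.1 ± 7.70 at 10 mM and 45.6 ± 2.24 in water at 24 h (SD, n = 5 each).

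Of the aspartate-glutamate carriers, which work with Slc25a11 in the malate-aspartate shuttle, Slc25a12 rose and Slc25a13 fell. Slc25a13, the liver form, gave 8164, 7925, 8169.8, 8406 and 8426 at 10 mM at 24 h, against 19772, 18503, 21485, 19163 and 19698 in water. The 48 h signals were 11771, 13757, 11239.7, 9834 and 11951 at 10 mM, against 19739, 19019, 13574, 17431 and 14409 in water. The groups were apart at 24 h and touched at 48 h, where the highest 10 mM culture passed the lowest water culture, and the differences were -1.26 ± 0.09 (adjusted p = 1.9e-13) and -0.52 ± 0.09 (adjusted p = 1.38e-05). Its second probeset also fell at both times (-0.88 and -0.51). Slc25a12, the form of brain and muscle, gave 1559, 1645, 1905, 2045 and 1863 at 10 mM at 24 h, against 799, 966, 843, 849 and 914 in water. After 48 h the signals were 1611, 1374, 1367, 1546 and 1508 at 10 mM, against 457, 1119, 899, 808 and 951 in water. All 10 mM cultures lay above all water cultures, and Slc25a12 rose by 1.03 ± 0.17 (adjusted p = 8.56e-06) and 0.85 ± 0.17 (adjusted p = 0.000156).

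The 7 tested carriers grouped under amino acids include Slc25a48, which was placed there without a test of its solute. Of the 7, 1 was higher and 2 lower at 24 h, and 4 were higher and 2 lower at 48 h. Over all tested genes, 31.1% were higher and 25% lower at 24 h, and 27.6% and 22.3% at 48 h. Slc25a22, a glutamate carrier, averaged 4188 ± 262 at 10 mM and 7699 ± 784 in water at 24 h, and 3642 ± 421 at 10 mM and 6581 ± 367 in water at 48 h (SD, n = 5 each), and its cultures at 10 mM lay wholly below those in water (differences -0.87 ± 0.14 and -0.86 ± 0.14). Slc25a29, a carrier of basic amino acids, Slc25a38, which brings in glycine for heme synthesis, and Slc25a44, a carrier of branched-chain amino acids, were called at 48 h, with rises of 0.54, 0.34 and 0.48. At 24 h their differences were 0.22, 0.12 and -0.04 and were not called; without the arrays of high actin ratio Slc25a29 had 0.35 at 24 h (adjusted p = 0.0246). A second probeset for Slc25a44 was not called at 48 h (0.09). Slc25a48 gave 764, 613, 671, 558 and 838 at 10 mM at 24 h, against 490.1, 465, 512, 519 and 637 in water. Its signals at 48 h were 524, 623, 635, 868 and 505 at 10 mM, against 679.7, 499, 1358, 804 and 585 in water, and its groups overlapped at both times. Its differences were 0.38 ± 0.18 (adjusted p = 0.092) and -0.25 ± 0.18 (adjusted p = 0.308), while its second probeset was higher at both times (1.06 and 0.84), so the 2 probesets disagreed. Slc25a18, the second glutamate carrier, was below the filter.

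Among the carriers of nucleotides and cofactors, 5 of the 6 tested rose and 1 fell at 24 h, and 4 rose at 48 h. Beside them, 31.1% of all tested genes were higher and 25% lower at 24 h, and 27.6% and 22.3% at 48 h. Slc25a36 gave 1854, 1763, 1956, 2052 and 1782 at 10 mM at 24 h, against 498, 549, 500.1, 387 and 609 in water. At 48 h it gave 2012, 1797, 2209, 2173 and 2341 at 10 mM, against 392, 374, 460.1, 426 and 588 in water. The lowest 10 mM culture was well above the highest water culture, and the differences of 1.87 ± 0.15 (adjusted p = 6.6e-12) and 2.21 ± 0.15 (adjusted p = 2.97e-13) were the largest of the 34 tested carriers at both times, 3.65-fold and 4.61-fold. A second probeset also rose (1.32 and 1.22). Slc25a33, the other carrier of pyrimidine nucleotides, gave 4445, 4206, 4904, 4139 and 4385 at 10 mM at 24 h, against 1977, 2505, 2168, 2152 and 2312 in water. The 48 h signals were 4675, 4126, 5021, 4656 and 4795 at 10 mM, against 1918, 1860.4, 1807, 1834 and 1908 in water. Its groups did not overlap, and it rose by 0.99 ± 0.11 (adjusted p = 2.3e-09) and 1.31 ± 0.11 (adjusted p = 8.59e-12). Slc25a17, which carries coenzyme A and other cofactors across the peroxisomal membrane, averaged 13231 ± 452 at 10 mM and 6816 ± 1087 in water at 24 h, and 12662 ± 938 at 10 mM and 7383 ± 257 in water at 48 h, rises of 0.97 and 0.77.

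The coenzyme A carrier Slc25a42 rose by 0.38 and 0.33 (adjusted p = 0.00525 and 0.018), and Slc25a16, its relative, by 0.60 at 24 h (adjusted p = 6.09e-05). At 48 h the difference of Slc25a16 was 0.25 ± 0.12 (adjusted p = 0.0951; 0.0038 without the 3 arrays of high actin ratio). Slc25a32, which carries folate or FAD, was the exception in this group. It gave 882, 793, 814, 853 and 943 at 10 mM at 24 h, against 1420.1, 1278, 1600.4, 1416 and 1421 in water. After 48 h the signals were 834, 955, 977, 920.1 and 933 at 10 mM, against 1119, 1131, 1057, 1109.8 and 926 in water. The groups were apart at 24 h only, and the differences were -0.72 ± 0.09 (adjusted p = 2.84e-08) and -0.20 ± 0.09 (adjusted p = 0.0624). Without replicate 5 of the water group the 48 h value was -0.25 (adjusted p = 0.0256). A second probeset for Slc25a32 did not follow it, with 0.00 at 24 h and a call of higher at 48 h (0.45).

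The mitoferrins, which bring iron into the matrix for heme and iron-sulfur clusters, also parted. Slc25a37, the form of red cell precursors, averaged 1761 ± 79.5 at 10 mM and 964 ± 254 in water at 24 h, and 1389 ± 101 at 10 mM and 968 ± 195 in water at 48 h (SD, n = 5 each), with no overlap and rises of 0.89 ± 0.14 and 0.53 ± 0.14 (adjusted p = 2.03e-06 and 0.00205). Slc25a28, the form of other tissues, averaged 1227 ± 72.0 at 10 mM and 1873 ± 375 in water at 24 h, and 1326 ± 230.1 at 10 mM and 1664 ± 283 in water at 48 h. It fell by 0.59 at 24 h (adjusted p = 0.00211), and at 48 h its groups overlapped, with a difference of -0.33 ± 0.16 (adjusted p = 0.0938). Slc25a39, which brings in glutathione, averaged 7519 ± 561 at 10 mM and 13989 ± 898 in water at 24 h, and 9042 ± 1043 at 10 mM and 15408 ± 647 in water at 48 h. Its groups did not overlap on this probeset (differences -0.90 ± 0.06 and -0.77 ± 0.06), but a second, dimmer probeset was not called (0.09 and -0.07).

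All 3 tested relatives of the uncoupling proteins were higher at 24 h, beside 31.1% of all tested genes. Slc25a30, known from kidney mitochondria, gave 4896, 5484, 4913, 4618 and 4965 at 10 mM at 24 h, against 1768, 2216, 1459, 1843 and 2039 in water. Its signals at 48 h were 3975, 3301, 3823, 3652 and 3382 at 10 mM, against 2112, 1951, 2471, 2249 and 2301 in water. All 10 mM cultures exceeded all water cultures, with differences of 1.42 ± 0.12 (adjusted p = 8.2e-12) and 0.71 ± 0.12 (adjusted p = 8.69e-06), and a second probeset rose likewise (1.65 and 0.95). Slc25a27, a form named for its expression in brain, gave 918, 727, 845, 877 and 829.5 at 10 mM at 24 h, against 382, 418, 338, 338 and 251.6 in water. At 48 h it gave 814, 804, 924, 873 and 809 at 10 mM, against 359, 416, 489, 504 and 525 in water. The groups were apart at both times and the differences were 1.26 ± 0.15 (adjusted p = 2.24e-08) and 0.87 ± 0.15 (adjusted p = 1.69e-05). Slc25a14, another form first described in brain, gave 700.4, 635, 721, 687 and 533 at 10 mM at 24 h, against 394, 404, 587, 298 and 227 in water. The 48 h signals were 554, 656, 737, 979 and 599 at 10 mM, against 386, 419.8, 570.4, 457 and 342 in water. Its groups overlapped at both times, and its difference of 0.81 ± 0.33 at 24 h (adjusted p = 0.0429) lost the call in 8 of the 10 fits that left out 1 culture, all but those without replicate 5 at 10 mM or replicate 3 in water, with a highest adjusted p of 0.128. The 48 h value was 0.67 ± 0.33 (adjusted p = 0.11).

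Of the remaining carriers, Slc25a46, an outer membrane protein of mitochondrial dynamics, fell by 0.26 at 24 h (adjusted p = 0.000297) and was not called at 48 h (-0.09), and its second probeset was not called. Slc25a51l1 rose by 0.33 at 24 h (adjusted p = 0.0478; 0.30 and 0.0683 without the 3 arrays of high actin ratio) and not at 48 h (-0.01). Slc25a35 and Slc25a45, carriers without an agreed solute, were called at neither time, with differences between -0.18 and 0.70. Slc25a53 gave 406, 209.6, 358, 208 and 396 at 10 mM at 24 h, against 199, 121, 162, 254 and 436 in water. After 48 h the signals were 313, 249.995, 285, 296 and 277 at 10 mM, against 370.0, 188, 341, 422 and 367 in water, and it was called at neither time (0.47 and -0.20). Without replicate 5 of the water group, the 24 h value of Slc25a53 was 0.72 (adjusted p = 0.029). Slc25a34 was below the filter.

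The carriers differed in how closely the 5 cultures of a group lay together. The pooled standard deviation within groups had a median of 0.21 on the log2 scale over the 34 tested carriers, as over all tested genes (0.21). It was lowest in Slc25a11 (0.07), Slc25a46 (0.08) and Slc25a3 (0.09), and highest in Slc25a14 (0.57), Slc25a35 (0.56) and Slc25a25 (0.50). Small changes of Slc25a3 or Slc25a11 could be called, while a difference of 0.70 in Slc25a35 at 24 h was not (adjusted p = 0.0807).

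To set related carriers against each other in the same culture, the log2 ratio of their signals was formed within each array, which removes any scaling of the whole array. Of 10 pairs of related carriers, chosen with earlier results of these data known, 8 had both members above the filter, and 16 exact two-sided permutation tests were run (5 cultures against 5, smallest possible p = 0.00794, adjusted over the 16). The ratio has no meaning as a ratio of molecules, since the probesets differ, and only its difference between groups is read. The ratio of Slc25a4 to Slc25a5 was -0.63 ± 0.08 at 10 mM and -2.71 ± 0.18 in water at 24 h, and -0.20 ± 0.14 at 10 mM and -1.50 ± 0.05 in water at 48 h (SD, n = 5 each). All 10 mM cultures lay above all water cultures, and the differences of 2.09 and 1.30 each had p = 0.00794 in the exact test (adjusted p = 0.00907). The ratio of Slc25a12 to Slc25a13 was -2.18 ± 0.14 at 10 mM and -4.47 ± 0.16 in water at 24 h, and -2.96 ± 0.24 at 10 mM and -4.33 ± 0.62 in water at 48 h. That of Slc25a24 to Slc25a25 was -0.55 ± 0.24 at 10 mM and 2.20 ± 0.23 in water at 24 h, and -0.57 ± 0.49 at 10 mM and 2.73 ± 0.28 in water at 48 h, with every 10 mM culture below every water culture. Differences for the other pairs at 24 h and 48 h were 1.48 and 0.86 for Slc25a37 to Slc25a28, -0.88 and -0.90 for Slc25a33 to Slc25a36, -0.70 and -1.21 for Slc25a24 to Slc25a23, and -1.27 and -0.95 for Slc25a10 to Slc25a11. The last pair rests on the brighter probeset of Slc25a10, whose dimmer probeset was not called against water at either time. In these 7 pairs each test gave the smallest possible p of 0.00794 (adjusted p = 0.00907), which every pair of groups that does not overlap gives. Where both members of a pair had left water in opposite directions without overlap, the single-gene values had already fixed this p. That was so for Slc25a4 with Slc25a5 and Slc25a24 with Slc25a25 at both times. At 24 h it was also so for Slc25a12 with Slc25a13, Slc25a37 with Slc25a28 and Slc25a10 with Slc25a11. Of single tested genes, 45.6% at 24 h and 42.3% at 48 h did not overlap between 10 mM and water, the share for pairs of genes at large was not computed, and nothing particular to these pairs is read from the count. Only the coenzyme A carriers Slc25a16 and Slc25a42 did not part by this test: their ratio differed by 0.22 (exact p = 0.429) and -0.09 (exact p = 0.476).

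**Figure D2:**
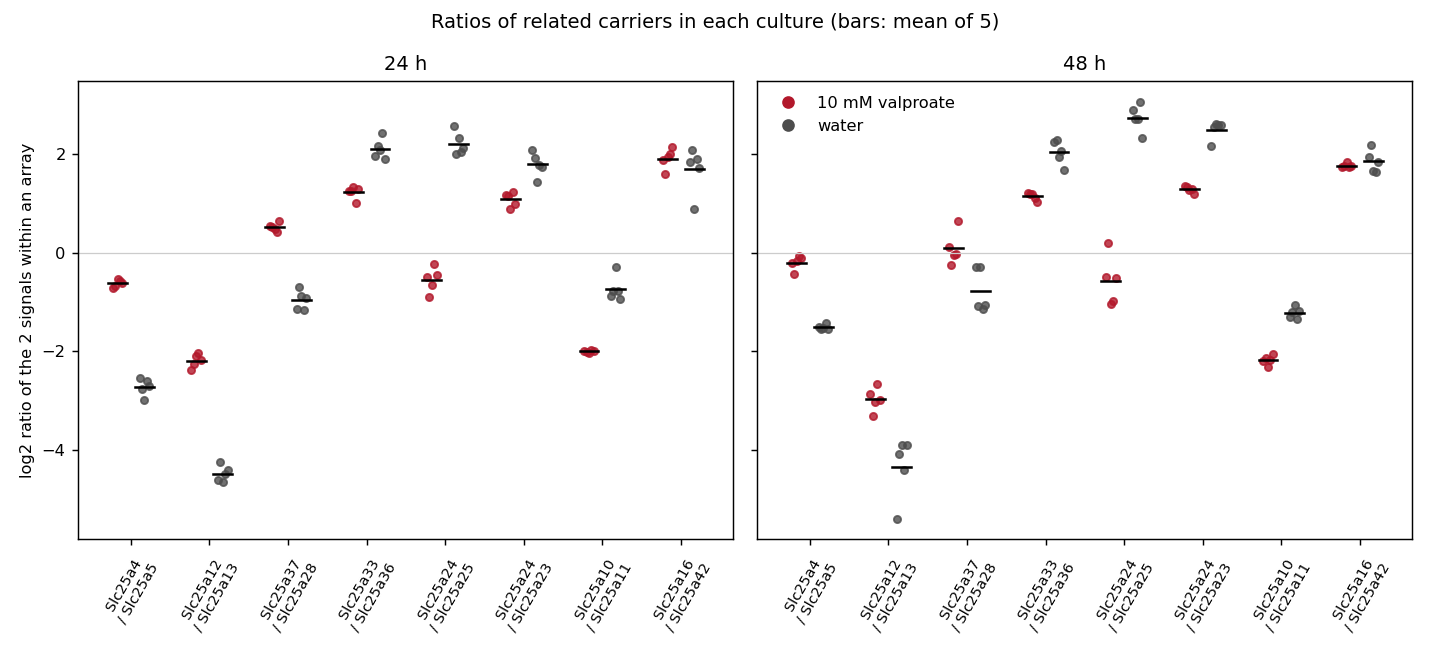
log2 ratio of the signals of related carriers within an array (y axis) for 8 pairs at 24 h (left) and 48 h (right), with 1 point for each of 5 cultures at 10 mM valproate (red) and 5 in water (grey), and a bar at the mean. In 7 pairs the red and grey points do not overlap; for Slc25a16 and Slc25a42 they do.

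At 0.5 mM fewer carriers were called than at 10 mM. At 24 h, 6 of 34 were higher and 7 lower than in water, where 12.7% of all tested genes were higher and 16.1% lower (28.8% either way). At 48 h, 4 were higher and 7 lower, where 11.9% were higher and 14.1% lower (26% either way). Without the 3 arrays of high actin ratio the totals were 12 at 24 h, of which 10 were among the 13, and 8 at 48 h, all among the 11. Slc25a33, the pyrimidine nucleotide carrier that rose at 10 mM, had the largest decrease at 24 h: it gave 1039.9, 1209.9, 1004, 1015 and 1138 at 0.5 mM at 24 h, against 1977, 2505, 2168, 2152 and 2312 in water. Its signals at 48 h were 1480.5, 774, 1158, 1084 and 934 at 0.5 mM, against 1918, 1860.4, 1807, 1834 and 1908 in water. All 0.5 mM cultures lay below all water cultures, with differences of -1.03 ± 0.11 (adjusted p = 1.63e-08) and -0.80 ± 0.11 (adjusted p = 1.21e-06). Slc25a13 moved the other way at both doses: it gave 23940.3, 23987, 23647, 23645 and 27277 at 0.5 mM at 24 h and 25571, 23379, 31426, 24768 and 26439.6 at 48 h. These lay above the water cultures given before, and Slc25a13 rose by 0.31 ± 0.09 (adjusted p = 0.0101) and 0.65 ± 0.09 (adjusted p = 1.89e-06). The 24 h rise was 0.20 (adjusted p = 0.139) where arrays were centred on ribosomal protein genes and 0.20 (adjusted p = 0.0935) after quantile normalization. At 48 h, Slc25a10 (0.44) and Slc25a17 (-0.31) also carried calls opposite to those at 10 mM, but both calls were lost without the arrays of high actin ratio, where Slc25a10 had 0.15 (adjusted p = 0.358) and Slc25a17 had -0.11 (adjusted p = 0.359). The comparisons of both doses share the water cultures.

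**Figure D3:**
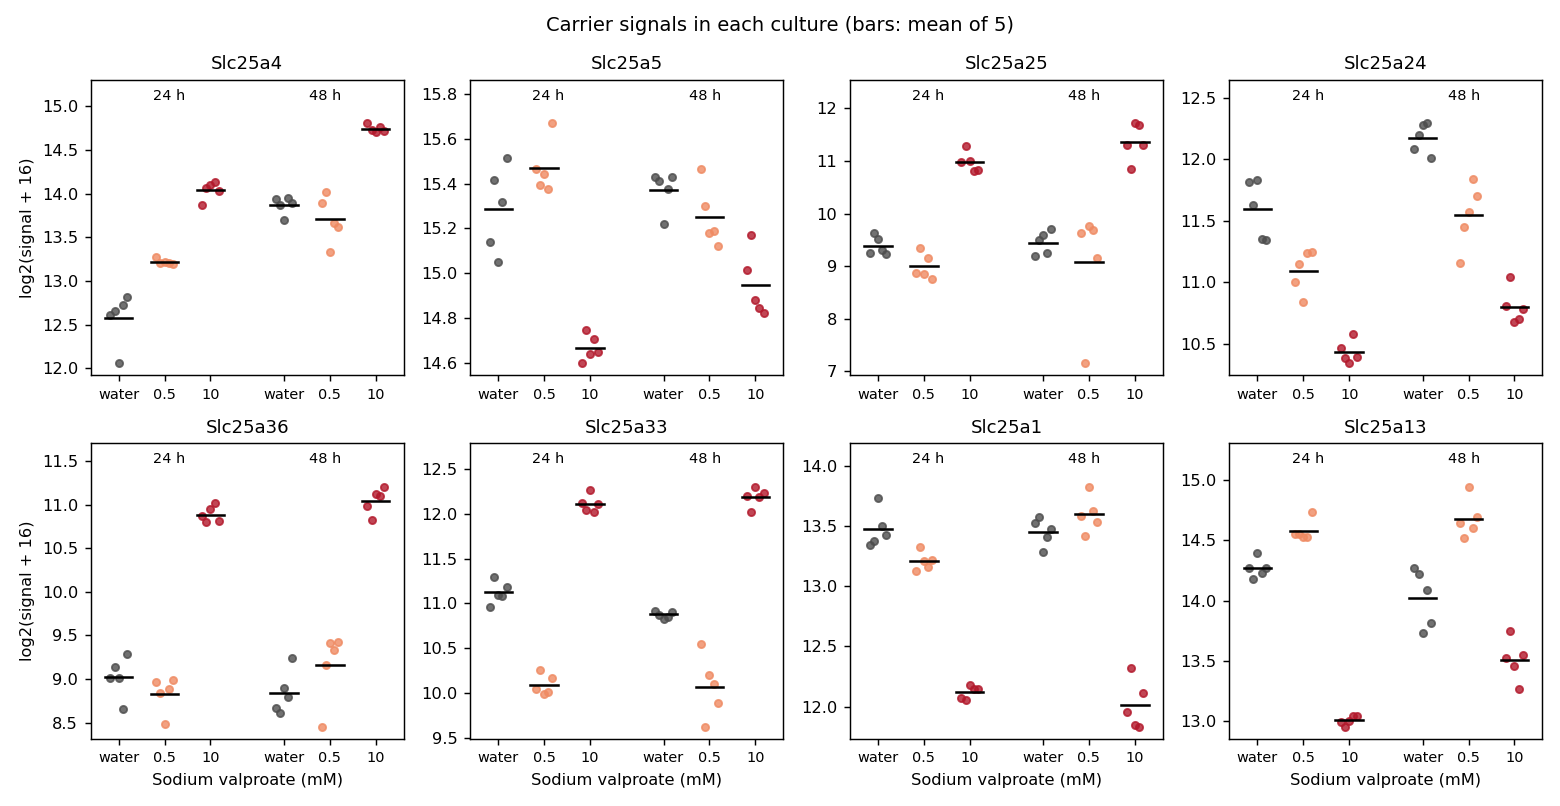
Signal of 8 carriers in each culture on the log2(signal + 16) scale (y axis) for water, 0.5 mM and 10 mM valproate at 24 h and 48 h (x axis), with 1 point for each of 5 cultures and a bar at the mean. Slc25a33 lies below water at 0.5 mM and above it at 10 mM, Slc25a13 the reverse, and Slc25a4 is higher at 48 h than at 24 h at each dose.

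Slc25a23 had the largest increase at 0.5 mM, at 48 h. It gave 1179, 1289.8, 2449, 2109.6 and 2285 at 0.5 mM at 48 h, all above the water cultures, and 1214, 1028, 948, 1148 and 1193 at 24 h. Its rise at 48 h was 1.13 ± 0.16 (adjusted p = 5.79e-06), and the highest cultures included replicates 3 and 4, whose actin ratio was high. Without the 3 such arrays its 48 h value was 0.89 (adjusted p = 7.79e-05), and its 24 h difference was 0.47 (adjusted p = 0.0149), in place of 0.32 (adjusted p = 0.161). Slc25a10 at 48 h gave 3516, 3726, 7606, 5967 and 4977 at 0.5 mM, with the highest values in the same 2 arrays, and its difference of 0.44 had an adjusted p of 0.0185 with them. Slc25a24 fell at 0.5 mM as at 10 mM. It gave 2032, 2254, 1820.0, 2397 and 2415 at 0.5 mM at 24 h and 2261, 2787, 3018, 3645 and 3323 at 48 h, below all water cultures at both times, with differences of -0.50 ± 0.11 (adjusted p = 0.00151) and -0.63 ± 0.11 (adjusted p = 9.9e-05).

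Slc25a4 gave 9918, 9447, 9479.6, 9411 and 9382 at 0.5 mM at 24 h, all above the water cultures, a rise of 0.65 ± 0.10 (adjusted p = 2.25e-05). At 48 h it gave 15226, 16620.0, 10337, 12947 and 12575 at 0.5 mM, which overlapped the water cultures, and the difference was -0.16 ± 0.10 (adjusted p = 0.295). Slc25a48 gave 906, 1070.2, 855, 889 and 1042 at 0.5 mM at 24 h, above all water cultures, and rose by 0.84 ± 0.18 (adjusted p = 0.00105). The 48 h signals were 731, 820.4, 563, 694 and 824 at 0.5 mM, with a difference of -0.03 (adjusted p = 0.931). The effect of 0.5 mM on Slc25a48 at 48 h minus that at 24 h was -0.88 on this probeset. With the mean of its 2 probesets it was -0.47 and not called (adjusted p = 0.12). The calls of Slc25a53 at 24 h (0.84, adjusted p = 0.0264) and of Slc25a14 at 48 h (-0.92, adjusted p = 0.0448) rested on overlapping groups. Slc25a53 gave 490.4, 278, 555, 347 and 372 at 0.5 mM at 24 h, and Slc25a14 gave 253, 219, 459, 286 and 63.5 at 0.5 mM at 48 h. Slc25a53 lost its call without replicate 1 or 3 at 0.5 mM or replicate 1, 2 or 3 in water (highest adjusted p = 0.0981). Slc25a14 lost its call without replicate 2 or 5 at 0.5 mM or replicate 1, 2, 3 or 4 in water (highest adjusted p = 0.215), and without replicate 5 at 0.5 mM, the lowest, its difference was -0.53. The citrate carrier Slc25a1, which fell at 10 mM, fell by 0.27 at 0.5 mM at 24 h (adjusted p = 0.0192; -0.21 and 0.0511 without the 3 arrays of high actin ratio) and had a difference of 0.14 at 48 h (adjusted p = 0.239). Slc25a28 and Slc25a22 fell at 24 h (-0.81 and -0.59), Slc25a42 rose at both times (0.53 and 0.40; at 48 h 0.27 and adjusted p = 0.126 without the 3 arrays), and Slc25a3, Slc25a11 and Slc25a51l1 fell at 48 h (-0.26, -0.24 and -0.55). Where arrays were centred on ribosomal protein genes, the 48 h calls of Slc25a3 (-0.12, adjusted p = 0.0524) and Slc25a11 (-0.096, adjusted p = 0.283) were lost. Slc25a29 and Slc25a44 fell and Slc25a45 rose at 24 h (-0.42, -0.53 and 0.46). Without the 3 arrays Slc25a29 had -0.30 (adjusted p = 0.0883) and Slc25a53 had 0.75 (adjusted p = 0.0713) at 24 h, and Slc25a37, which had 0.30 (adjusted p = 0.119), had 0.43 and was called (adjusted p = 0.0169). Of the carriers that rose most at 10 mM, Slc25a36, Slc25a25, Slc25a30, Slc25a27 and Slc25a12 were called at neither time at 0.5 mM, with differences of -0.19 and 0.32 for Slc25a36, -0.39 and -0.37 for Slc25a25, 0.00 and -0.21 for Slc25a30, 0.27 and -0.10 for Slc25a27 and -0.21 and -0.24 for Slc25a12. Without replicate 1 of the 0.5 mM group at 48 h, Slc25a36 had 0.50 and was called, and without replicate 1 of the water group at 48 h Slc25a12 had -0.44 and was called. With the mean of its 2 probesets Slc25a30 had -0.42 at 48 h and was called lower (adjusted p = 0.00645). Its effect at 48 h minus that at 24 h was then -0.51 (adjusted p = 0.0277). The 48 h value of Slc25a25 turned to 0.11 (adjusted p = 0.687) without replicate 2 of the 0.5 mM group, so its direction rests on that culture, and was -0.80 (adjusted p = 0.0703) without the 3 arrays of high actin ratio.

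The higher and the lower dose were also compared directly. At 24 h, 15 of 34 carriers were higher and 12 lower at 10 mM than at 0.5 mM, where 32.9% of all tested genes were higher and 26.4% lower (59.3% either way). At 48 h, 13 were higher and 10 lower, where 30% were higher and 23.8% lower (53.8% either way). The largest differences were those of Slc25a36 (2.06 ± 0.15 and 1.89 ± 0.15), Slc25a33 (2.02 ± 0.11 and 2.11 ± 0.11) and Slc25a25 (1.98 ± 0.29 and 2.29 ± 0.29) on the higher side at 24 h and 48 h. On the lower side they were those of Slc25a13 (-1.57 ± 0.09) and Slc25a1 (-1.08 ± 0.08) at 24 h, and of Slc25a1 (-1.58 ± 0.08) and Slc25a10 (-1.35 ± 0.14) at 48 h. The size and rank of the Slc25a10 value lean on replicates 3 and 4 of the 0.5 mM group at 48 h. These arrays of high actin ratio held its highest signals there, 7606 and 5967, against 3516 to 4977 in the others. The value is also that of its brighter probeset only. Slc25a42 differed by -0.14 at 24 h (95% interval -0.38 to 0.09) and -0.07 at 48 h (95% interval -0.30 to 0.17), with overlapping groups, after rises against water at both doses.

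In water alone, 3 of 34 carriers were higher and 3 lower at 48 h than at 24 h, where 5.11% of all tested genes were higher and 4.96% lower (10.1% either way). Slc25a4 changed most: the water cultures at 48 h, listed before, all lay above those at 24 h, a rise of 1.30 ± 0.10 (adjusted p = 1.7e-10), or 2.45-fold. The rise over the same interval was 0.49 ± 0.10 (adjusted p = 0.00209) at 0.5 mM and 0.70 ± 0.10 (adjusted p = 8.66e-06) at 10 mM. Slc25a24 also rose with time in water (0.58 ± 0.11, adjusted p = 0.00112), with no overlap, and Slc25a3 did so slightly (0.18, adjusted p = 0.0495). Slc25a29, Slc25a44 and Slc25a32 fell (-0.52, -0.48 and -0.41). The count of 6 was 3 without replicate 3 of the water group at 24 h, and the call of Slc25a3 was lost in 6 of 10 fits that left out 1 culture.

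The effect of 10 mM differed between 48 h and 24 h in 4 carriers, where 12.8% of all tested genes were called. The effect of 10 mM at 48 h minus that at 24 h was 0.74 ± 0.13 for Slc25a13 (adjusted p = 0.000113) and 0.52 ± 0.12 for Slc25a32 (adjusted p = 0.00536), whose decreases were smaller at 48 h. It was -0.71 ± 0.17 for Slc25a30 (adjusted p = 0.00414) and -0.59 ± 0.15 for Slc25a4 (adjusted p = 0.00648), whose rises were smaller at 48 h. For Slc25a4 the water level itself was higher at 48 h, so the smaller difference stood beside a higher signal at 10 mM. The effect of 0.5 mM differed with time in 9 carriers (21.7% of all tested genes), among them Slc25a4 (-0.81), Slc25a48 (-0.88), Slc25a23 (0.81) and Slc25a10 (0.74). Without the 3 arrays of high actin ratio only Slc25a4 of the 9 was still called (-0.54, adjusted p = 0.0013), beside Slc25a14, which was not among them (-1.51, adjusted p = 0.0441). Slc25a48 then had -0.74 (adjusted p = 0.119), Slc25a23 had 0.43 (adjusted p = 0.214) and Slc25a10 had 0.34 (adjusted p = 0.121). Of the other 5, Slc25a1 had 0.26 (adjusted p = 0.16), Slc25a28 had 0.41 (adjusted p = 0.275), Slc25a29 had 0.35 (adjusted p = 0.269), Slc25a44 had 0.55 (adjusted p = 0.0747) and Slc25a3 had -0.18 (adjusted p = 0.214). Without replicate 1 of the 0.5 mM group at 48 h the count was 15.

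Genes that work beside the carriers were examined in 4 lists, whose counts at 10 mM stand beside 31.1% higher and 25% lower over all tested genes at 24 h, and 27.6% higher and 22.3% lower at 48 h. Of the enzymes of the malate-aspartate and citrate shuttles, 13 were tested, and at 10 mM 3 were higher and 7 lower at 24 h, with 2 higher and 5 lower at 48 h (median difference -0.22 and -0.09). Acly, which splits exported citrate into acetyl-CoA, averaged 13138 ± 808 at 10 mM and 41408 ± 3882 in water at 24 h (SD, n = 5 each). It fell by 1.65 (adjusted p = 4.74e-14) at 24 h and 1.93 (adjusted p = 3.65e-15) at 48 h, as did Me1, the cytosolic malic enzyme (-1.48 and -0.92), Gpt2, the mitochondrial alanine aminotransferase (-1.52 and -0.96), and Pc, the pyruvate carboxylase of the matrix (-1.40 and -0.42). The 48 h call of Pc was lost without replicate 1 of the water group (-0.31, adjusted p = 0.108) and without replicate 3 (-0.36) or replicate 4 (-0.39) of the 10 mM group. At 0.5 mM Pc was higher instead, at 11875 ± 2538 against 3503 ± 716 in water at 48 h, a rise of 1.75 ± 0.15 (adjusted p = 4.64e-10).

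Of 21 tested transporters of the mitochondrial membranes outside the Slc25a family, 4 were higher and 7 lower at 24 h, and 8 higher and 8 lower at 48 h, at 10 mM (median difference 0.03 and -0.02), or 52.4% and 76.2% called beside 56.1% and 49.8% of all tested genes. The 21 include Mcub and Ucp2, which passed the filter through treated cultures where they were high. No excess over all tested genes is read from these shares. Mcub, a subunit that lowers the conductance of the calcium uniporter, averaged 1309.6 ± 109 at 10 mM and 96.8 ± 69.9 in water at 24 h, and 1242 ± 198 at 10 mM and 102 ± 19.8 in water at 48 h. The water means lay below the filter level, a signal of 152, and Mcub passed the filter through the 10 mM cultures, which all lay above all water cultures, so no size of change is given for it. Ucp2, an uncoupling protein, likewise passed through treated cultures. It averaged 265 ± 172 at 10 mM and 136 ± 85.1 in water at 24 h, where the groups overlapped, and 664 ± 147 at 10 mM and 111 ± 61.4 in water at 48 h, where they did not. The sideroflexins parted, with Sfxn1, a serine carrier, lower (-1.28 and -0.93) and Sfxn3 higher (1.31 and 1.14).

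Of the 15 genes for the import and insertion of carriers, 8 were higher and 4 lower at 24 h, and 7 higher and 3 lower at 48 h, at 10 mM, all by less than 1 on the log2 scale (median 0.22 and 0.15). Timm8a1, a chaperone of the intermembrane space, fell (-0.61 and -0.72), while its relative Timm8b rose (0.49 and 0.36), as did the pore protein Tomm40 (0.34 and 0.51). The receptor Tomm20 rose at 24 h (0.37, adjusted p = 0.000102) and was not called at 48 h (0.15, adjusted p = 0.107). At 0.5 mM the same list had 1 gene higher and 5 lower at 24 h, beside 12.7% and 16.1% of all tested genes, and none higher and 11 lower at 48 h, beside 11.9% and 14.1% (10 lower without the 3 arrays of high actin ratio). Tomm40 fell there at both times (-0.50 and -0.48), against its rise at 10 mM, and the list's median at 0.5 mM was -0.07 and -0.30.

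Of 11 tested regulators of mitochondrial biogenesis, 4 were higher and 3 lower at 24 h, and 4 higher and none lower at 48 h, at 10 mM (median 0.17 and 0.18), or 63.6% and 36.4% called beside 56.1% and 49.8% of all tested genes. Tfam, which packages and transcribes mitochondrial DNA, averaged 8297 ± 207 at 10 mM and 5069 ± 315 in water at 24 h, and rose by 0.71 ± 0.06 (adjusted p = 3.19e-12) and 0.59 ± 0.06 (adjusted p = 2.77e-10). The mitochondrial transcription factor Tfb2m rose with it (0.79 and 0.45). Gabpa, an ETS factor that drives nuclear genes of the respiratory chain, and Pprc1, a coactivator, fell at 24 h (-1.01 and -0.96) and were not called at 48 h (-0.04 and -0.19). Pprc1 also fell at 0.5 mM at 24 h (-0.96, adjusted p = 2.04e-05).

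**Figure D4:**
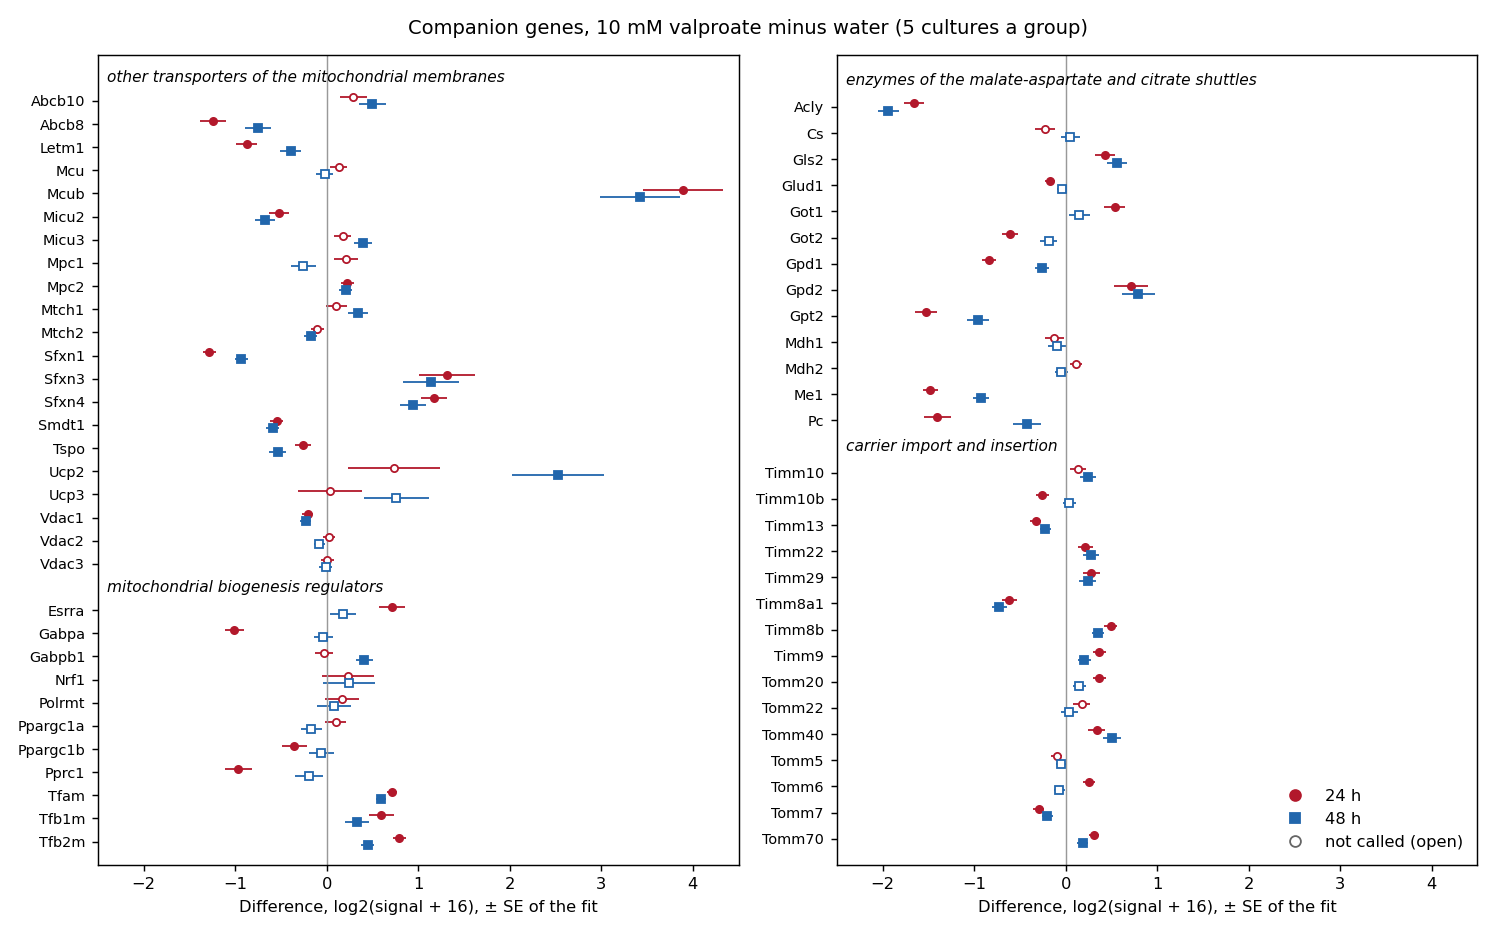
Difference between 10 mM valproate and water on the log2(signal + 16) scale (x axis) for the tested genes of 4 lists, at 24 h (red circles) and 48 h (blue squares), with bars of 1 SE of the fit over 5 cultures a group; open symbols were not called. Mcub and Ucp2 are plotted against water signals below the filter level, so their positions give no size of change; Acly lies farthest to the left, at -1.65 and -1.93.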

How the data were processed

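Total RNA of 30 cultures of rat hepatocytes was measured on 1 expression array per culture, in 6 groups of 5. The deposited intensity values are MAS5 probeset signals on a linear scale, per the submitters' processing notes; the version and settings are not stated there. In the deposited intensities each array has the same trimmed mean to within rounding (1500.5 to 1500.7), which hides any change in total RNA per culture. Of 31099 probesets, 20826 had 1 gene symbol in the platform annotation, 436 several and 9780 none, and 57 were controls. The 2 probesets that name a carrier together with another gene were not used. Where a gene had several probesets, the brightest on average stood for it.

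Signals were taken as log2(signal + 16), probesets below the 30th percentile of mean log2 signal (7.39) were left out, and limma 3.58.1 in R 4.3.3 was fitted to all 6 groups at once (24 residual degrees of freedom, eBayes with a trend), with Benjamini-Hochberg adjustment over 21729 probesets. The fit was tested on simulated data. Related carriers were compared by the log2 ratio of their signals within an array, with exact permutation tests. Groups were taken from the sample labels, which give no replicate numbers, so replicates are numbered in the order of deposition and pair nothing. The precision is limited by the 5 arrays of a group. Promoters came from a RefSeq table of GRCr8.

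Values per culture are given for carriers called at 10 mM with a change of at least 1 on the log2 scale (up to 14, by size), for up to 5 called at 0.5 mM, for up to 5 called in the interaction of 10 mM with time, and always for Slc25a1, Slc25a3, Slc25a4, Slc25a5, Slc25a10, Slc25a11 and Slc25a13; up to 4 called genes are named per companion list. The carriers, lists and pairs were chosen with earlier results of these data known. Alternatives changed the pseudocount, scaling, filter, trend, weights, probeset choice, groups in the fit, a block, and the arrays included.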

Additional observations from a re-analysis of the deposited data

Results flagged for a closer look

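In 114 sets of 5 cultures of a named carrier, 10 held a culture that lay far from the other 4 by Dixon's test, where chance gives about 1 in 20. At 10 mM and 48 h, Slc25a11 was 8145 in replicate 5 and 8817 to 9088 in the others. At 0.5 mM and 48 h, Slc25a36 was 334 in replicate 1 (558 to 672 in the others) and Slc25a25 was 127 in replicate 2 (551 to 854). At 0.5 mM and 24 h, replicate 5 was high in Slc25a13 (27277, others 23645 to 23987) and in Slc25a10 (4601, others 3534 to 3771), and replicate 1 in Slc25a4 (9918, others 9382 to 9480). In water at 24 h, replicate 3, an array of high actin ratio, was low in Slc25a4 (4256, others 6245 to 7187) and high in Slc25a23 (1338, others 749 to 841). In water at 48 h, Slc25a53 was 188 in replicate 2 (341 to 422) and Slc25a5 was 38169 in replicate 3 (42443 to 44167).

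The effect of a dose differed between 48 h and 24 h by the interaction test of limma (adjusted p under 0.05) as follows, as the effect at 48 h minus that at 24 h. At 10 mM the interaction was 0.74 for Slc25a13, 0.52 for Slc25a32, -0.71 for Slc25a30 and -0.59 for Slc25a4. At 0.5 mM it was 0.41 for Slc25a1, 0.74 for Slc25a10, 0.81 for Slc25a23, 0.63 for Slc25a28, 0.67 for Slc25a29, 0.71 for Slc25a44, -0.24 for Slc25a3, -0.81 for Slc25a4 and -0.88 for Slc25a48. Without the 3 arrays of high actin ratio only Slc25a4 of these 9 was still called at 0.5 mM (-0.54). The others had 0.26 for Slc25a1, 0.34 for Slc25a10, 0.43 for Slc25a23, 0.41 for Slc25a28, 0.35 for Slc25a29, 0.55 for Slc25a44, -0.18 for Slc25a3 and -0.74 for Slc25a48, none of them called.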

How the results depend on the processing

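All 30 calls of named carriers at 10 mM against water kept their direction in every alternative run, and 27 also kept the call. The 3 that lost it somewhere were Slc25a14, Slc25a11 and Slc25a23, all at 24 h. The ratios of related carriers stayed on the same side of the threshold in every alternative run for them. Without the 3 arrays of high actin ratio the interaction of 0.5 mM with time was called in 2 carriers, 1 of them among the 9 called with all arrays, and after quantile normalization in 14, in place of 9. With 1 array left out at a time, this count ranged from 6 to 15, and that of carriers called with time in water from 3 to 6. Requiring a change of at least 1 on the log2 scale left 6 higher and 4 lower at 10 mM at 24 h, 3 higher and 2 lower at 48 h, 1 at 0.5 mM at each time, 7 and 11 for 10 mM against 0.5 mM at 24 h and 48 h, 1 with time in water, and 0 for each interaction. The interaction of Slc25a3 with 0.5 mM reversed to 0.0172 when arrays were centred on ribosomal protein genes (-0.24 as deposited); that scaling moved the median of all genes at 0.5 mM at 48 h to 0.14 (-0.01 as deposited). The cause was not tested. No paired analysis was possible because the labels give no replicate numbers; a replicate block on runs of 6 arrays in the title numbers changed the call of 2 named values. For 4 carriers the mean log2 signal lay below the filter level, and they were not tested. The part of background in the signal of dim carriers was not tested.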
